A study of Homo sapiens with 6 samples.

Results

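The HOX genes of the HOXA, HOXB, HOXC and HOXD clusters were described in HAP1 cells with and without the enzyme DEGS1. The members were all rows of the count table whose symbol is HOX, a cluster letter from A to D and a paralog number, with nothing after it. This gave 39 of 35238 rows, with 11 genes in HOXA, 10 in HOXB, 9 in HOXC and 9 in HOXD. Membership was set by the symbol and used no measured value. HAP1 is an established, near-haploid human line that grows attached and descends from a leukaemia line. One group was wildtype HAP1 and the other was HAP1 carrying a DEGS1 knockout, with 3 libraries each. DEGS1 encodes the desaturase that turns dihydroceramide into ceramide. All cells of both groups were untreated, were kept in medium with 5% serum and were collected 24 h after a passage. The labels name no inducer, transgene or second allele, and leave unsaid whether replicates came from separate cultures and from how many knockout clones. The p-values set the difference between genotypes against the spread among the libraries of a genotype, some or all of which could be technical. They therefore cannot speak for further clones or cultures.

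HOX genes encode homeodomain transcription factors that give cells their position along the head-to-tail axis and along the limbs. Within a cluster the genes lie in order, with low paralog numbers used in anterior regions and high numbers in posterior regions and distal limbs. Genes with the same number in different clusters are paralogs, copies that arose when an ancestral cluster was duplicated. Cell lines tend to keep a HOX pattern of their own, kept by Polycomb repression and trithorax activation.

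HOXC9 and HOXD13 were the members that passed the test between genotypes, and the homeobox is the part of each gene most like its paralogs. It is shown here because reads that matched several paralogs could have moved counts between them. The sequences are 180 bases each, read from GENCODE release 29 transcripts 5′ to 3′, and a homeobox was found in 39 of 39 members. For group 9 the comparison is with HOXB9 and HOXD9. In the HOXC9 line, capitals mark the 19 bases that differ from both HOXB9 and HOXD9. In the other lines they mark bases that differ from HOXC9.
HOXC9: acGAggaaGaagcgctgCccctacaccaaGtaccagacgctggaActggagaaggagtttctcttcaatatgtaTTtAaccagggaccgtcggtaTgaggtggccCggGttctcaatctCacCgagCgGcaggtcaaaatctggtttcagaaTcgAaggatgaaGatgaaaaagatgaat
HOXB9: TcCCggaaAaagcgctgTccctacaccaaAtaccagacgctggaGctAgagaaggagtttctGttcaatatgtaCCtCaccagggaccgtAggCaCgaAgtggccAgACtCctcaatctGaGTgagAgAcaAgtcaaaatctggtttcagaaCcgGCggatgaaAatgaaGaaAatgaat
HOXD9: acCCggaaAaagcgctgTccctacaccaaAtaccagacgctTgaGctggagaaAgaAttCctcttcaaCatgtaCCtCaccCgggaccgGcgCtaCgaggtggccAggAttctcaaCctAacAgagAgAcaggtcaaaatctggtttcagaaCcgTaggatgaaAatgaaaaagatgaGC
HOXB9 and HOXD9 differed from HOXC9 at 32 and 30 bases, an identity of 82.2 and 83.3%. The longest identical runs were 20 and 23 nt, shorter than a read of 75 nt.

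In group 13, capitals in the HOXD13 line mark the 24 bases that differ from all 3 paralogs, and in the other lines they mark bases that differ from HOXD13.
HOXD13: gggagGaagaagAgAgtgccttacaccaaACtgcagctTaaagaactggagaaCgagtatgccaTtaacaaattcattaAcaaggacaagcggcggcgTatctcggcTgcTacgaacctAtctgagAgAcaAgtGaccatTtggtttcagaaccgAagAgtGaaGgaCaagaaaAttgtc
HOXA13: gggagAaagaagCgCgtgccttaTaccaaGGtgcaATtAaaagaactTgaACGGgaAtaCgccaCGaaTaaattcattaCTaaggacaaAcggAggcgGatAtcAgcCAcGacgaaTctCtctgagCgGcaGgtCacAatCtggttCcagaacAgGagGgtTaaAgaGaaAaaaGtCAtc
HOXB13: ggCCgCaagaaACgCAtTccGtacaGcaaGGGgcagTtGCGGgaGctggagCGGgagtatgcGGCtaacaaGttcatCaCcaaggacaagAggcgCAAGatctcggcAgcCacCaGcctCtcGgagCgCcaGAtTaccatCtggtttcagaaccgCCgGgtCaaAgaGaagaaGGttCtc
HOXC13: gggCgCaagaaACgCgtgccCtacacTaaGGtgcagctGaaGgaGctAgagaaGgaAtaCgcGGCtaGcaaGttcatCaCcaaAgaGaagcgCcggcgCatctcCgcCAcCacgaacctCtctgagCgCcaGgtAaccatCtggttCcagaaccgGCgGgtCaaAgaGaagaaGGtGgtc
HOXA13, HOXB13 and HOXC13 differed from HOXD13 at 48, 54 and 47 bases, an identity of 73.3, 70 and 73.9%, with longest identical runs of 10, 14 and 8 nt. Over the whole of its longest transcript, no 75-nt stretch of HOXC9 or HOXD13 occurred in a transcript of another GENCODE gene on either strand. The same held for HOXD8, HOXB13, HOXC8 and HOXC11. Other members did share sequence with overlapping genes. On the same strand, 91.9% of the stretches of HOXD3 and 74.3% of those of HOXD4 also lay in AC009336.2, and 73.9% of those of HOXA7 were met on the opposite strand in HOXA-AS3. Smaller shares were met on the same strand for HOXA9 (16.4%) and HOXA4 (28%), and on the opposite strand for HOXA10 (21.7%) and HOXA11 (28.6%), among others. The values of HOXD3, HOXD4, HOXA9 and HOXA4 are uncertain to that extent whatever the strand setting of the counting. Those of HOXA7, HOXA10 and HOXA11 are so because that setting is not given.

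Totals ran from 17322756 to 28988522 counts per library, and the HOX genes together took 0.0261 to 0.0275% of them, 4764 to 7932 counts. CPM below are counts scaled to a common library size, and a count of 3 equals 0.109 to 0.161 CPM. DEGS1 stood at 105, 123 and 95.5 CPM in wildtype and at 9.49, 6.88 and 10.4 CPM in the knockout. Wildtype replicate 2 stood apart from the other wildtype libraries, since the chi-square of its counts per degree of freedom was 33.8 and 52.6 against them and 12.6 between those 2. Knockout replicate 1 stood apart by less, at 31.3 and 23.7 against the other knockout libraries and 14.5 between those. Of 8 blood markers 3 had a group mean over 1 CPM in each genotype, the list summed to 4.61 to 8.18 CPM in wildtype and 5.18 to 6.67 CPM in the knockout, and SPI1, MPO and HBG1 were at 0 in all libraries. Summed mesenchyme markers ran from 488 to 564 CPM in wildtype and from 749 to 887 CPM in the knockout, with VIM as most of the sum. Members went different ways, since PRRX1 of the same list fell by 4.38 on the log2 scale (adjusted p = 0.000184 by edgeR) and the epithelial marker EPCAM fell by 3.01 (adjusted p = 0.00233 by edgeR). Epithelial markers summed to 69.1 to 74.5 and 69.7 to 104 CPM, and pluripotency markers to 308 to 418 and 298 to 440 CPM. The pluripotency members also went different ways. LIN28A stood at 27.6, 9.1 and 28.3 CPM in wildtype and at 142, 61.8 and 171 CPM in the knockout (adjusted p = 0.133 by edgeR). POU5F1 stood at 321, 295 and 384 CPM in wildtype and at 221, 232 and 266 CPM in the knockout (adjusted p = 0.0916 by edgeR), and NANOG overlapped. The part of these differences in the HOX values was not tested, and in bulk RNA fewer cells of a type and less RNA per cell cannot be told apart.

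HAP1 used mainly HOXA genes and, across the clusters, mainly genes of high paralog number. Levels were compared between genes as CPM per kilobase of the longest transcript. In wildtype the sum over all 39 genes was 105 ± 10.8 CPM per kb (SD, n = 3), and the HOXA cluster held 64.3% of it. HOXD held 16.3%, HOXB 10.5% and HOXC 8.97%. HOXA9, HOXA10, HOXA11 and HOXA13 together held 45.6 ± 1.18% of the sum. By position, groups 9 to 13 held 65.7%, groups 5 to 8 held 21.3% and groups 1 to 4 held 13%. HOXA9, a factor of blood stem cells and leukaemias, was the most abundant member at 20.2 ± 2.64 CPM per kb. HOXA13, a factor of digits and the hindgut, followed at 13.6 ± 0.55 CPM per kb. HOXD13, its partner in digit formation, came next at 10.5 ± 2.36 CPM per kb, a gap of little more than its SD. HOXA7, HOXA10 and HOXA11 stood at 8.78 ± 1.66, 7.72 ± 1.38 and 6.34 ± 0.304 CPM per kb, and HOXA7 and HOXA10 did not differ beyond their SD. No member outside HOXA and HOXD had a wildtype mean of 4 CPM per kb, and HOXB2, a hindbrain factor, was the highest of these at 3.69 ± 0.289. These levels depend on the transcript taken. Per kilobase of the median transcript length of each gene, HOXA9 was still first in wildtype at 55.8 ± 7.28, but HOXA7 came second at 30.3 ± 5.74, before HOXA10 at 14.2 ± 2.54, HOXA13 at 13.6 ± 0.505 and HOXD13 at 10.5 ± 2.37. On that scale HOXB2 stood at 6.2 ± 0.489 and HOXC10 at 4.57 ± 0.994, and HOXA held 73.8% of the sum.

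Within a cluster the level did not follow position in a single slope. In HOXA it was at most 0.613 ± 0.0786 CPM per kb from HOXA2 to HOXA4, while HOXA5 stood at 3.80 ± 0.278 and the peak was at HOXA9. The low level of HOXA3 depends on the length taken. Per kilobase of the median transcript length it stood at 3.32 ± 0.241, while HOXA2 and HOXA4 stayed low at 0.561 ± 0.0843 and 0.645 ± 0.0829. In HOXB, HOXB2 to HOXB4 were present, HOXB5, HOXB7 and HOXB8 were at or near 0, and HOXB6 was low at 0.259 ± 0.138 CPM per kb. HOXB9 and HOXB13 were present again at 1.11 ± 0.14 and 2.77 ± 0.101 CPM per kb. HOXD had the same kind of gap. HOXD4 stood at 2.43 ± 0.434, HOXD8 at 2.99 ± 0.575 and HOXD13 at 10.5 ± 2.36 CPM per kb, while HOXD9 to HOXD12 lay between 0.0327 and 0.166. HOXC was low and uneven. HOXC8, HOXC9, HOXC10 and HOXC13 had means of 1.73 to 2.04 CPM per kb and SDs of 0.216 to 0.408. HOXC6 stood at 0.941, HOXC11 at 0.487, HOXC4 at 0.244, HOXC5 at 0.19 and HOXC12 at 0. Per kilobase of the median transcript length HOXC6 stood at 2.44 ± 0.164 and HOXC10 at 4.57 ± 0.994.

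**Figure D1:**
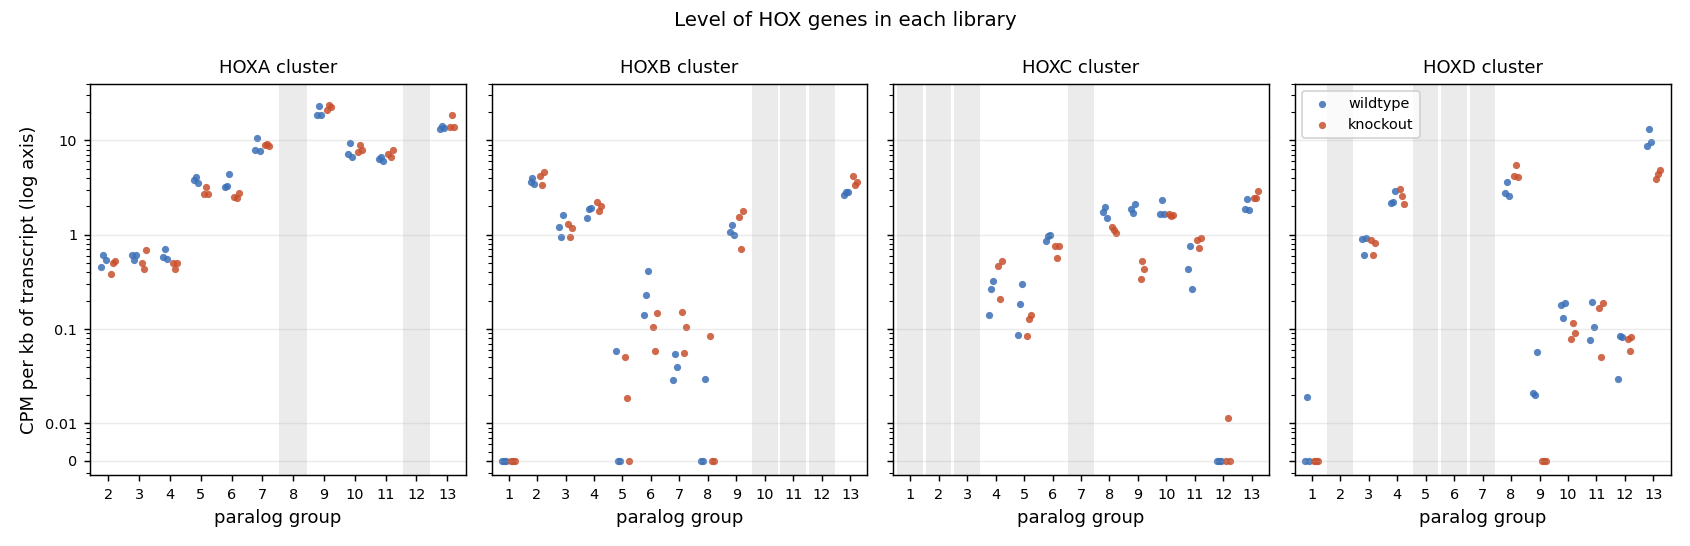
Level of HOX genes in CPM per kb of the longest transcript, by cluster and paralog group, with 1 point per library (blue wildtype, red knockout). The axis is logarithmic above its lowest mark, where points with no count are drawn, and grey columns mark positions with no row in that cluster. HOXA9 has the highest mean in both genotypes, HOXB5 to HOXB8 and HOXD9 to HOXD12 lie below the genes on either side of them, and HOXC9 and HOXD13 are the tested genes with red farthest under blue.

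Loss of DEGS1 left most of this pattern in place and went with lower HOXC9 and HOXD13. Of 39 members 27 passed the low-count filter and were tested, 11 in HOXA, 5 in HOXB, 7 in HOXC and 4 in HOXD. With edgeR's quasi-likelihood test and an adjusted p under 0.05, 2 of the 27 were lower in the knockout and 0 were higher. Over all 16954 tested genes 4.46% were called, 2.95% lower and 1.51% higher, so a count this small is not a result about the HOX genes as a group. DESeq2 and limma also called 0 members higher. At an unadjusted edgeR p under 0.05 there were 5 members, HOXB13 and HOXD8 on the higher side and HOXC8, HOXC9 and HOXD13 on the lower side, beside 16.5% of all tested genes (6.69% higher and 9.81% lower). The 3 wildtype and 3 knockout values did not overlap for 11 of the 27 tested members, 4 higher and 7 lower, beside 20.8% of all tested genes (9.24% higher and 11.6% lower). The median log2 fold change, knockout over wildtype, was 0.02 over the 27 members and -0.02 over all tested genes. The median size regardless of sign was 0.27 for the members and 0.19 for all tested genes.

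**Figure D2:**
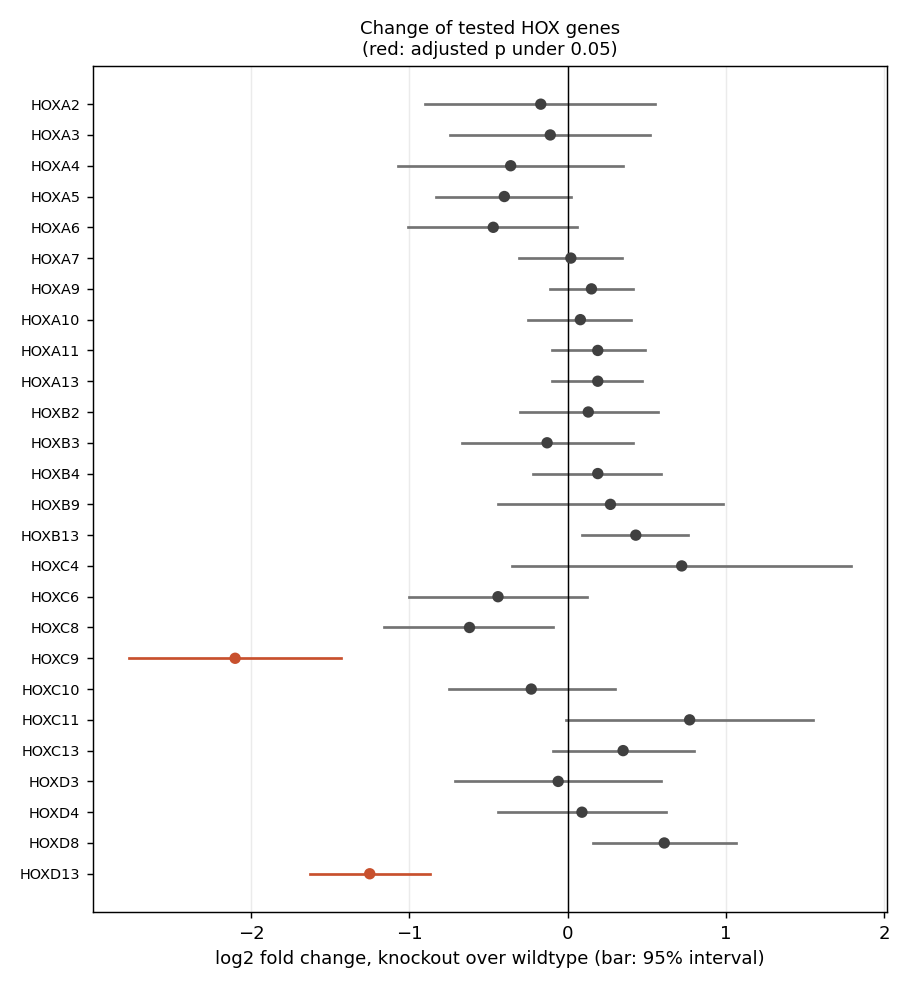
Log2 fold change, knockout over wildtype, of tested HOX genes with the 95% interval of the edgeR fit (n = 3 libraries per genotype). The red points HOXC9 at -2.10 and HOXD13 at -1.25 are the members with an adjusted p under 0.05, and the other points lie between -0.62 and 0.77.

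HOXC9 had the largest fold change of all 27. It is a trunk-level factor that in the embryo helps to set thoracic identity in the skeleton and the motor neurons. It stood at 2.83, 2.56 and 3.21 CPM in wildtype and at 0.513, 0.803 and 0.656 CPM in the knockout. The groups were well apart, with the lowest wildtype library more than 3 times the highest knockout library. The underlying counts were 72, 69 and 60 against 10, 21 and 18, so the knockout level rests on few reads. The log2 fold change was -2.10 with an SE of 0.30 (adjusted p = 0.00176 by edgeR), 4.29-fold lower, with a 95% interval of -2.77 to -1.43.

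Its neighbours in the HOXC cluster did not pass the test. HOXC8, a factor of the lower neck and thorax, stood at 3.26, 3.68 and 2.84 CPM in wildtype and at 2.26, 2.14 and 1.97 CPM in the knockout. The knockout libraries were all below the wildtype ones, and the log2 fold change was -0.62 with an SE of 0.24 (adjusted p = 0.218 by edgeR). HOXC10, on the other side of HOXC9, had overlapping groups and a log2 fold change of -0.23 with an SE of 0.24 (adjusted p = 0.681 by edgeR). HOXC6, a thoracic factor, had -0.44 with an SE of 0.26 (adjusted p = 0.429 by edgeR), with no overlap. The genes at the posterior end had values of the opposite sign. HOXC13, a regulator of hair and nail keratins, had the highest mean CPM of the cluster. It stood at 4.56, 5.87 and 4.39 CPM in wildtype and at 6, 5.93 and 7.03 CPM in the knockout. The groups came close without overlapping, and its log2 fold change was 0.35 with an SE of 0.20 (adjusted p = 0.428 by edgeR). HOXC11, a hindlimb-level factor, stood at 1.42, 2.49 and 0.857 CPM in wildtype and at 2.87, 2.37 and 3.03 CPM in the knockout. Wildtype replicate 2 reached into the knockout range, and the log2 fold change was 0.77 with an SE of 0.36 (adjusted p = 0.31 by edgeR). Without that library it was 1.25 (edgeR adjusted p = 0.0114), and 22.1% of all tested genes were called, beside 4.46% with all libraries. HOXC4, a neck-level factor and the tested member with the fewest reads, had counts of 6, 12 and 10 in wildtype against 15, 9 and 24 in the knockout. Its groups overlapped, with a log2 fold change of 0.72 and an SE of 0.49 (adjusted p = 0.511 by edgeR).

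The makeup of the HOXC cluster differed with these values. HOXC9 was 21.6, 15.9 and 23.7% of the summed HOXC CPM per kb in wildtype and 4.31, 7.24 and 5.18% in the knockout. HOXC13 was 21.8, 22.8 and 20.2% in wildtype and 31.5, 33.4 and 34.8% in the knockout. Neither share overlapped between genotypes. Among the group 9 paralogs HOXC9 was a minor part even in wildtype, 8.27 ± 1.68% of their summed CPM per kb against 86.8 ± 1.67% for HOXA9. In the knockout these were 1.79 ± 0.328% and 92.6 ± 2.09%. The summed level of group 9 was 23.2 ± 2.58 CPM per kb in wildtype and 24.2 ± 1.12 in the knockout, a difference within the SD.

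HOXD13 had the smallest adjusted p of all members and changed at a far higher read depth. It drives the formation of digits and the genital tubercle together with HOXA13. It stood at 19.5, 29.5 and 21.6 CPM in wildtype and at 8.82, 9.79 and 11 CPM in the knockout. Wildtype replicate 2 was the highest, and the groups did not overlap. Counts were 496, 795 and 403 against 172, 256 and 302. The log2 fold change was -1.25 with an SE of 0.17 (adjusted p = 0.00136 by edgeR), 2.38-fold lower, with a 95% interval of -1.63 to -0.87. Without wildtype replicate 2 it was -1.05 (edgeR adjusted p = 0.000343).

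HOXD8, a trunk-level gene of the same cluster, had the next smallest p in HOXD and a value of the opposite sign. It stood at 5.27, 6.98 and 4.93 CPM in wildtype and at 8.05, 10.5 and 7.76 CPM in the knockout. The groups did not overlap, and the log2 fold change was 0.61 with an SE of 0.21 (adjusted p = 0.147 by edgeR), with a 95% interval of 0.16 to 1.06. It passed the threshold without wildtype replicate 2, at 0.79 (edgeR adjusted p = 0.0135). In that setting 22.1% of all tested genes were called, beside 4.46% with all libraries. The anterior genes HOXD3 and HOXD4 had overlapping groups and log2 fold changes of -0.06 (SE 0.30) and 0.09 (SE 0.24), with intervals of -0.71 to 0.59 and -0.44 to 0.62.

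HOXD13 and HOXD8 are shown by their promoters because they are the main transcripts of HOXD and their values went in opposite directions. The sequences run from 250 bases before to 50 bases after the RefSeq start, in GRCh38.p14, at chr2:176092471-176092770 for HOXD13 and chr2:176129455-176129754 for HOXD8, both on the plus strand. Capitals mark matches, on either strand, to the TATA box core TATAAA, to the CCAAT box, to the GC box GGGCGG, to AGGTCA as the core of nuclear receptor sites, and to TTTATNG as the posterior HOX and CDX type of site.
HOXD13: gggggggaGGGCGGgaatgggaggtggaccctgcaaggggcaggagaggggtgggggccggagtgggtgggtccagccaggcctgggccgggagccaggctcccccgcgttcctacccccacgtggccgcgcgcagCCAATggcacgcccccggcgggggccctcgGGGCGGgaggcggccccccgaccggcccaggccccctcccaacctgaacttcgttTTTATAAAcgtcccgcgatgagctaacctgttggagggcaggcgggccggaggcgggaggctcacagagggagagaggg
HOXD8: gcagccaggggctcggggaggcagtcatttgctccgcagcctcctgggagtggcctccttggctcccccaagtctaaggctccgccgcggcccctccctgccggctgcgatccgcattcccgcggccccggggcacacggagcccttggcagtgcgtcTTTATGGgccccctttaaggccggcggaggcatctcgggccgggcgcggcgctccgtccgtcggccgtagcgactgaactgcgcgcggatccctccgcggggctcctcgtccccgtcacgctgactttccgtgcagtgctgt
The HOXD13 window held TATAAA on both strands in 1 overlapping stretch, with starts at -29 and -27, 1 CCAAT at -114 and GGGCGG at -242 and -84. The HOXD8 window held TTTATNG at -92 and none of the others. Over 35116 RefSeq promoters of the same length, 11.5% held TATAAA, 34.6% held CCAAT, 45% held GGGCGG, 13.8% held AGGTCA and 9.73% held TTTATNG. These are letter matches, and nothing was measured at these sites. An entry was found for 20 of 39 members and not for HOXC9.

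**Figure D3:**
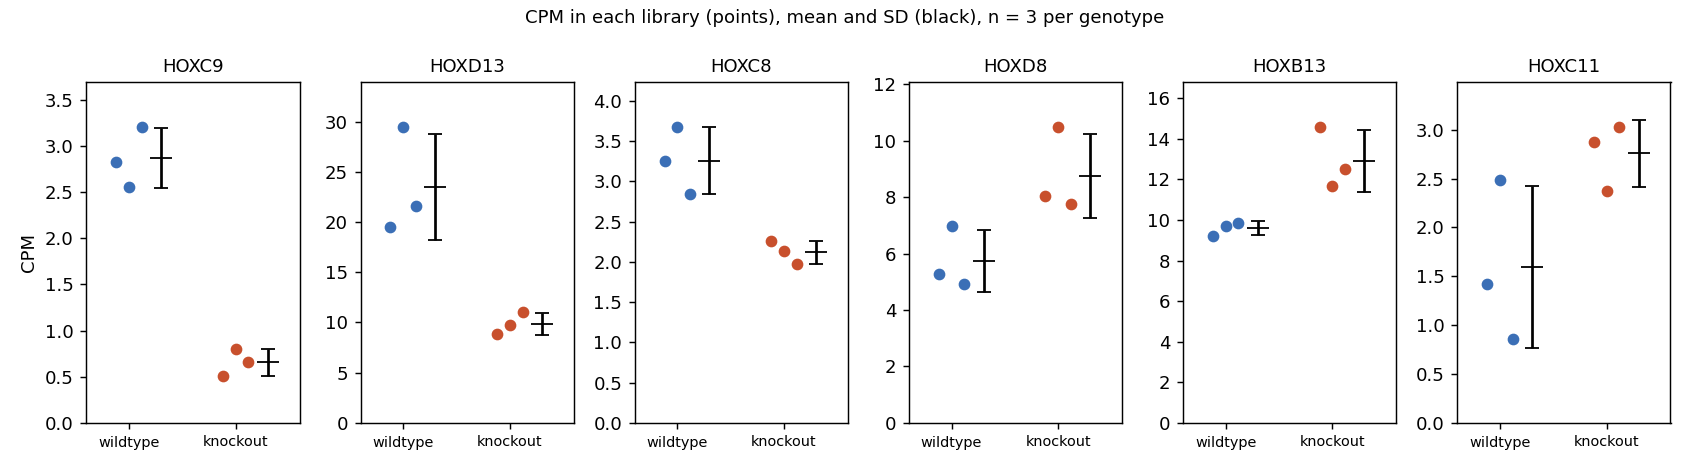
CPM in each library of the 6 members with the smallest p, with 1 point per library, the mean (long tick) and the SD (bar), n = 3 per genotype, each axis starting at 0. HOXC9 and HOXD13 show the widest gaps, HOXC8, HOXD8 and HOXB13 are apart by less, and HOXC11 overlaps through wildtype replicate 2.

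HOXD13 led the HOXD cluster in all 3 wildtype libraries and in 1 of 3 knockout libraries. It made up 58.8, 65.6 and 58.4% of the summed HOXD CPM per kb in wildtype and 31.8, 33 and 40% in the knockout. HOXD8 made up 18.6, 18.1 and 15.6% in wildtype and 33.9, 41.3 and 32.9% in the knockout. The other 2 knockout libraries had HOXD8 above HOXD13 per length. This order is set by the length taken, since per median transcript HOXD8 held 39.2, 47.2 and 38.3% and HOXD13 27.6, 28.3 and 34.8% in the knockout, with HOXD8 above in all 3. In wildtype HOXD13 was first on both scales. Among the group 13 paralogs, HOXD13 held 33.1, 40.5 and 34.7% of their sum in wildtype against 16.1, 15.2 and 19.5% in the knockout. HOXA13 took 49.7, 43.5 and 48.5% in wildtype and 56.6, 64.6 and 54.7% in the knockout. The summed level of group 13 was 28.9 ± 3.28 CPM per kb in wildtype and 26.2 ± 2.28 in the knockout, with overlapping libraries. The difference was below the wildtype SD and above the knockout SD.

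**Figure D4:**
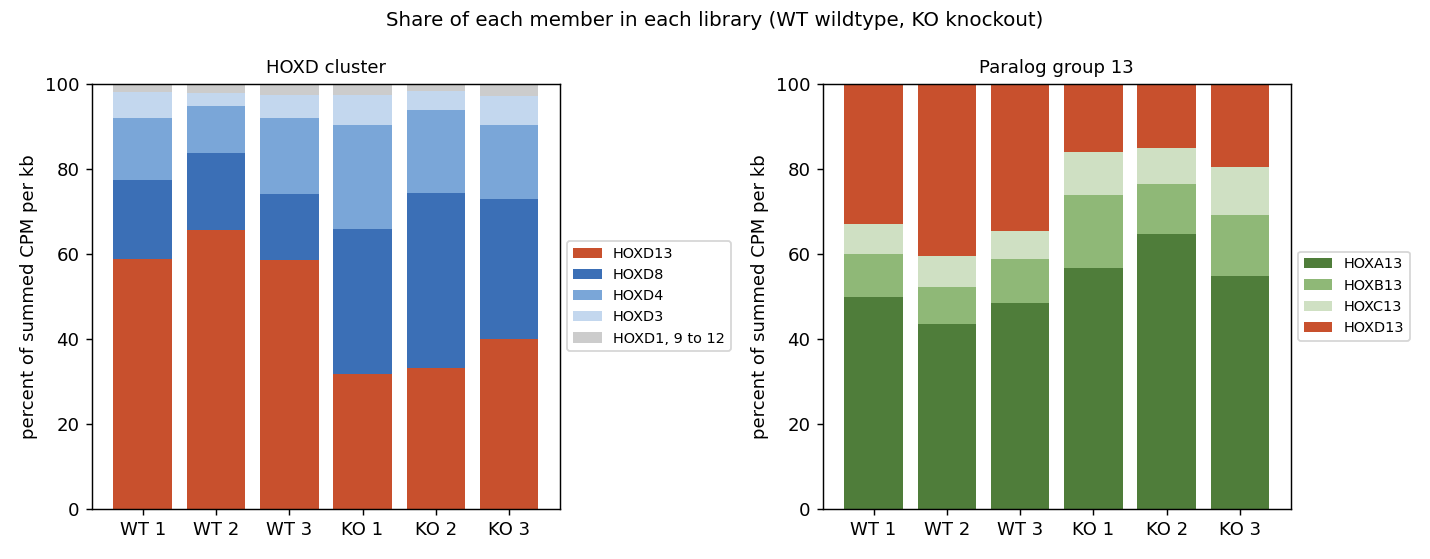
Percent of the summed CPM per kb held by each HOXD gene (left) and each group 13 paralog (right) in each library. The HOXD13 part, in red at the bottom on the left and at the top on the right, is larger in every wildtype library than in any knockout library, 58.4 to 65.6% against 31.8 to 40% in HOXD.

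The HOXA genes, which carry most HOX RNA of these cells, did not pass the test in either direction. HOXA9 stood at 38.8, 47.8 and 38.1 CPM in wildtype and at 43.2, 48.6 and 46.5 CPM in the knockout. The groups overlapped, and the log2 fold change was 0.15 with an SE of 0.12 (adjusted p = 0.572 by edgeR), with a 95% interval of -0.11 to 0.41. HOXA13 stood at 65.7, 71.2 and 67.7 CPM in wildtype and at 69.7, 93.5 and 69.5 CPM in the knockout. Knockout replicate 2 was high, and the log2 fold change was 0.19 with an SE of 0.13 (adjusted p = 0.515 by edgeR), with an interval of -0.10 to 0.47. The change seen for HOXD13 lies far outside that interval, although the difference between the paralogs was not tested. HOXA10, a uterine and blood factor, had 0.08 (SE 0.15). HOXA11, which shapes the forearm with its HOXD paralog, had 0.19 (SE 0.13), with groups that did not overlap. HOXA7, a trunk factor, had 0.02 (SE 0.15), a value whose sign turned with library scaling.

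HOXA2 to HOXA6 had values below 0. HOXA5, a lung and airway factor and the HOXA gene with the smallest p, stood at 6.29, 6.76 and 5.84 CPM in wildtype and at 4.51, 5.28 and 4.48 CPM in the knockout. The knockout libraries were all lower, and the log2 fold change was -0.40 with an SE of 0.19 (adjusted p = 0.326 by edgeR). HOXA6 had -0.47 (SE 0.24) and HOXA4 -0.36 (SE 0.33), also without overlap. HOXA2 and HOXA3, which pattern the hindbrain and the pharyngeal arches, had overlapping groups and log2 fold changes of -0.17 (SE 0.33) and -0.11 (SE 0.29). Over all clusters the median log2 fold change was -0.09 for the 10 tested genes of groups 1 to 4, -0.42 for the 6 of groups 5 to 8 and 0.19 for the 11 of groups 9 to 13. The called members HOXC9 and HOXD13 both belong to groups 9 to 13, so that range holds both the called decreases and a positive median.

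In HOXB the gene with the smallest p and the highest CPM was HOXB13, a prostate and hindgut factor that lies far from the rest of its cluster. It stood at 9.2, 9.73 and 9.86 CPM in wildtype and at 14.6, 11.7 and 12.5 CPM in the knockout. All knockout libraries were above all wildtype libraries, and the log2 fold change was 0.43 with an SE of 0.15 (adjusted p = 0.171 by edgeR), with a 95% interval of 0.09 to 0.76. The other tested HOXB genes had overlapping groups. HOXB2 had a log2 fold change of 0.13 (SE 0.20), HOXB3, also a hindbrain factor, -0.13 (SE 0.25), and HOXB4, a factor of blood stem cells, 0.19 (SE 0.19). HOXB9, a thoracic factor, had 0.27 (SE 0.32), with 2 knockout libraries above and 1 below the wildtype range.

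The 12 members that were not tested had few reads in both genotypes. HOXB1 had no count in any library, which allows up to 0.109 to 0.161 CPM per library. HOXC12 and HOXD1 had 1 count each over all libraries. HOXB5 and HOXB8 had at most 3 counts in any library, and HOXB7 had 1, 2 and 1 in wildtype against 4, 2 and 4. HOXB6 and HOXC5 were nearest to the filter from below. HOXB6 had 7, 12 and 15 counts in wildtype against 4, 3 and 8 in the knockout, and HOXC5 had 4, 9 and 10 against 3, 6 and 7. The middle of the HOXD cluster was also near 0. HOXD9 had 1, 1 and 2 counts in wildtype against 0 in each knockout library, and HOXD10 had 9, 7 and 7 against 3, 6 and 5. HOXD11 had 3, 8 and 3 against 5, 2 and 8, and HOXD12 had 1, 3 and 2 against 2, 2 and 3. With the filter left out none of these passed edgeR's test, and the lowest adjusted p was 0.338, for HOXB6. Differences between genotypes in these genes were not detectable at this depth.

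The sums over all HOX genes and over HOXA differed little between genotypes, with log2 ratios, knockout over wildtype, of -0.02 and 0.06. The ratio was 0.20 for HOXB, and the sums of HOXC and HOXD were lower in the knockout, at -0.26 and -0.44. All HOX genes together stood at 105 ± 10.8 CPM per kb in wildtype and 103 ± 2.77 in the knockout (SD, n = 3). HOXA stood at 67.4 ± 6.86 and 70.4 ± 4.43, and HOXB at 10.9 ± 0.58 and 12.5 ± 1.94, both with overlapping libraries. HOXC stood at 8.65, 10.6 and 8.96 CPM per kb in wildtype and at 7.86, 7.31 and 8.35 in the knockout. HOXD stood at 14.8, 20.1 and 16.5 in wildtype and at 12.4, 13.2 and 12.3 in the knockout. The HOXC and HOXD sums were lower in each knockout library than in any wildtype library, and HOXC9 and HOXD13 are their members that passed the test. As shares of all HOX RNA, HOXD went from 16.3 ± 0.956% to 12.2 ± 0.329% and HOXC from 8.97 ± 0.0712% to 7.59 ± 0.607%. The share of groups 9 to 13 was 65.7 ± 1.25% and 66.2 ± 1.51%. For the chromosomes that carry the clusters, a median log2 deviation was taken in each library, centred on the median over all chromosomes. It used genes with a mean log2 CPM above 3, with the HOX genes left out. The mean of these medians differed, knockout minus wildtype, by 0.02 on chromosome 7, 0.06 on 17, 0.05 on 12 and 0.05 on 2.

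Genes that act with and upstream of HOX factors, homeobox relatives and flanking genes were counted from lists. Of 9 TALE cofactors, the PBX, MEIS and PKNOX partners that bind DNA with HOX proteins, 9 were tested and 0 called, and 4 had an unadjusted p under 0.05, where 4.46% and 16.5% of all tested genes did so. MEIS2 had the smallest p, with a log2 fold change of 0.31 with an SE of 0.10 (adjusted p = 0.139 by edgeR), and all knockout libraries were above the wildtype ones. Of 17 genes of retinoic acid supply and reception, a signal that turns on anterior HOX genes in the embryo, 14 were tested and 3 called, 2 higher and 1 lower, beside the 1.51% and 2.95% of all tested genes. ALDH1A2, which makes retinoic acid, stood at 43.3, 42.3 and 41.9 CPM in wildtype and at 0.975, 0.918 and 1.06 CPM in the knockout. CYP26B1, which degrades it, stood at 9.16, 8.06 and 8.78 CPM against 16.2, 15.5 and 16.1 CPM, a log2 fold change of 0.88 with an SE of 0.14 (adjusted p = 0.00338 by edgeR). STRA6, a retinol transporter, had 0.92 with an SE of 0.22 (adjusted p = 0.0343 by edgeR). The STRA6 call was lost without wildtype replicate 1 (0.99, edgeR adjusted p = 0.0847), knockout replicate 1 (0.88, adjusted p = 0.132) or knockout replicate 3 (0.84, adjusted p = 0.191). It was also lost with upper-quartile scaling (0.89, adjusted p = 0.0798) and with library size alone (0.86, adjusted p = 0.118).

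Of 9 CDX, ParaHox and EVX genes, homeobox relatives of the HOX genes, 4 were tested and 1 was called, beside 4.46% of all tested genes. GSX2, a ParaHox gene of the ventral forebrain, rose from 0.668, 0.669 and 0.429 CPM to 2.92, 2.1 and 2.48 CPM, a log2 fold change of 2.05 with an SE of 0.32 (adjusted p = 0.00315 by edgeR). The GSX2 counts were 17, 18 and 8 in wildtype against 57, 55 and 68 in the knockout. EVX1, which lies beside HOXA13, had -1.76 with an SE of 0.50 (adjusted p = 0.0787 by edgeR). Its counts were also few, 17, 13 and 22 against 5, 4 and 7. CDX2, an activator of posterior HOX genes, had overlapping groups and -1.22 with an SE of 0.39 (adjusted p = 0.128 by edgeR). Of 27 Polycomb genes, whose complexes keep HOX genes silent, all were tested and 1 was called, beside 4.46% of all tested genes. This was PHF1, a PRC2 partner, at 15.6, 13.6 and 14.8 CPM in wildtype and 20.3, 20.2 and 22.8 CPM in the knockout, with a log2 fold change of 0.53 with an SE of 0.13 (adjusted p = 0.0402 by edgeR). Of 11 trithorax and H3K27 demethylase genes, which keep HOX genes active, all were tested and 1 was called, beside the same 4.46%. This was ASH2L, a subunit of the KMT2 methyltransferases, at 58, 64.5 and 59.3 CPM in wildtype and 40.9, 48.7 and 45 CPM in the knockout, with -0.43 with an SE of 0.11 (adjusted p = 0.0431 by edgeR). Both calls were lost with most libraries left out in turn. Without wildtype replicates 1 or 3 or knockout replicates 1, 2 or 3 the edgeR adjusted p was 0.123, 0.0974, 0.0993, 0.0619 and 0.222 for PHF1. The same for ASH2L was 0.131, 0.0777, 0.26, 0.0562 and 0.199. Without wildtype replicate 2, where 22.1% of all tested genes were called, both calls stayed, at 0.0184 for PHF1 and 0.0164 for ASH2L. With all libraries PHF1 was lost with upper-quartile scaling (0.08), library size alone (0.13) and chromosome medians removed (0.0805), and ASH2L with DESeq2 size factors (0.0664) and voom (0.0535).

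Of 10 CTCF and cohesin genes, which fold the clusters into domains, 0 were called (4.46% over all tested genes) and 1 had an unadjusted p under 0.05 (16.5%), and PDS5B had the smallest p with -0.57 with an SE of 0.16 (adjusted p = 0.0737 by edgeR). It lies on chromosome 13, where the difference of the chromosome medians, taken as above, was -0.35. Of 23 genes that flank the 4 clusters 18 were tested and 0 called, with 3 at an unadjusted p under 0.05, beside the same shares over all tested genes. The smallest p among them was that of EVX1, and CALCOCO2, which lies near HOXB13, had 0.37 with an SE of 0.11 (adjusted p = 0.113 by edgeR). Of 25 noncoding RNAs of the clusters 0 matched a row by symbol, so none was analysed here.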

How the data were processed

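RNA from 6 HAP1 libraries was sequenced as single reads of 75 nt from a stranded total RNA kit (1 ug input), per the labels' protocols. The values are raw counts per gene symbol as the authors deposited them, not normalized. bcl2fastq 2.20 and the build hg19 were used, per the submitters' processing notes. Not given in the sources used here were the aligner, the counter, the annotation and the strand setting.

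Genes that passed filterByExpr were tested on genotype with edgeR 4.0.16 in R 4.3.3 (TMM scaling, robust quasi-likelihood F test), with Benjamini-Hochberg adjustment over 16954 genes and a threshold of 0.05. The SE was obtained by dividing the size of the log2 fold change by the root of F. The biological coefficient of variation was 16.4%. Cluster sums and shares carry no test. The pipeline was tested on simulated data. No pair of libraries of a genotype agreed within sampling noise (chi-square per degree of freedom 12.6 to 52.6). Reads carried no molecular identifiers, so floors speak only for counting error.

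The HOX genes as a group and the lists were chosen with earlier results of these data known. Library values are given for called members, for the gene with the smallest p and the highest level in each cluster, and for members next to the filter. From each list, up to 4 called genes or the one with the smallest p are named. HOXD8, HOXC8, HOXC11, HOXA9 and the untested members were added after their values were seen, as were EVX1, CDX2 and CALCOCO2. Transcripts came from GENCODE release 29 and promoters from RefSeq, both of another build than the counts and matched by symbol. Some values are not reported here. Alternatives were DESeq2 1.42.0 size factors and Wald test, upper-quartile and library-size scaling, voom from limma 3.58.1, no filter, 1 CPM in 3 libraries, chromosome medians removed, median transcript length, a replicate block, each library left out and a threshold of 0.01.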

Additional observations from a re-analysis of the deposited data

How the results depend on the processing

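HOXC9 and HOXD13 were called lower in every setting tried, with log2 fold changes of -2.26 to -1.95 and -1.37 to -1.05, and 21 of 27 tested members kept their direction. The number of members called higher was 0, except 2 without wildtype replicate 2 (HOXC11 and HOXD8; range 0 to 2 over the libraries left out) and 1 with the replicate block (HOXD8, 0.62, edgeR adjusted p = 0.0455). The count over all genes was 756. It was 375 at a threshold of 0.01 and ran from 380 to 3825 with a library left out. Leaving out wildtype replicate 1 gave 441, wildtype replicate 2 gave 3825, knockout replicate 1 gave 424 and knockout replicate 3 gave 380. The 3825 were 22.1% of 17305 tested genes, beside 4.46% with all libraries. The cause was not tested.

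Sign changed in 6 members, none of them called in these settings. HOXA7 had 0 with upper-quartile scaling, -0.02 with library size alone and -0.01 with chromosome medians removed. With a library left out its log2 fold change ran from -0.07 to 0.19, turning negative when wildtype replicates 1 (-0.05) or 3 (-0.07) were dropped. The same ranges were -0.33 to 0.04 for HOXA3 (positive with knockout replicate 2 dropped) and -0.01 to 0.24 for HOXA10 (negative with wildtype replicate 3 dropped). HOXB3 ran from -0.29 to 0.09 (positive with wildtype replicate 3 dropped) and HOXD4 from -0.02 to 0.24 (negative with knockout replicate 1 dropped). HOXD3 ran from -0.23 to 0.09, with 0.02, 0.04 and 0.09 when wildtype replicates 1 or 3 or knockout replicate 2 were dropped.

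Same-numbered libraries of the genotypes also share a tag in the labels, which do not say what it marks. Their residual correlations were 0.22, 0.31 and -0.13, and those of differently numbered libraries ran from -0.41 to 0.36. With 3 libraries per genotype these values cannot decide whether the libraries are pairs. The main fit did not treat them as pairs because the labels do not explain the number. With the number as a replicate block 1082 genes were called. The log2 ratio of each cluster sum between genotypes moved by less than 1 SD between replicates, on the log2 scale, in every setting run for it, while the sums themselves depend on length (HOXA in wildtype 67.4, or 137 CPM per kb with the median transcript).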
